A study of Mus musculus with 32 samples.

Results

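9 genes that mark regulatory T cells were followed through 4 lymphoid tissues of mice that carry a CD30 ligand transgene and of their littermates: Foxp3, Il2ra, Ctla4, Ikzf2, Ikzf4, Capg, Gpr83, Lrrc32 and Nrp1. Members were all probe sets that the array's probe-to-gene table assigns to one of these symbols. Of the 9 genes, 8 had at least 1 probe set, 18 probe sets in all, out of 18193 genes and 45037 probe sets on the array once controls were set aside. Lrrc32, which encodes the receptor that holds latent TGF-beta on the regulatory T cell surface, had none and was not analysed here. The members lie on chromosomes X (Foxp3), 2 (Il2ra), 1 (Ctla4 and Ikzf2), 10 (Ikzf4), 6 (Capg), 9 (Gpr83) and 8 (Nrp1).

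The transgenic animals carried a CD30 ligand transgene that the sample names call CD2-CD30L, meant for constant expression in T cells, and the controls were littermates without it, called wild type here. All animals were female C57BL/6 mice aged 12 weeks, 4 of each genotype. Peripheral lymph node, mesenteric lymph node, spleen and thymus of each mouse were each hybridised to 1 Affymetrix array, 32 arrays in all, from total RNA of whole tissue. The founder line is not given in the sources used here. A mouse number shared by both genotypes names different animals, and no pairing by number is stated. In both genotypes, spleen arrays of mice 1 and 2 differed from those of mice 3 and 4 in a sign of RNA quality given below. Because RNA came from whole tissue, fewer cells of a type and less RNA of a gene per cell cannot be told apart in any value below.

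Regulatory T cells are CD4 T cells that restrain other lymphocytes. Their identity is set by the transcription factor Foxp3, they depend on interleukin 2 from other cells, and they form both in the thymus and from mature T cells in the periphery. Several of their marker genes are also used by other cells: Il2ra by early thymocytes and activated T cells, Ctla4 by activated T cells, Capg by macrophages, and Nrp1 by endothelium and dendritic cells. CD30, the receptor for CD30 ligand, belongs to the TNF receptor family and is found on activated lymphocytes.

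Promoter sequence is shown for Foxp3 and Ctla4, the lineage factor and an inhibitory receptor whose values moved together across arrays, as described further on. Windows of 250 bases before the annotated start were taken from RefSeq on GRCm38.p6, where 6 of the 9 genes had an entry, 7 windows in all. All 3 windows lie on the plus strand and are written 5′ to 3′, with letters that match a searched motif in capitals.
Foxp3, upstream start, chrX:7579426-7579675: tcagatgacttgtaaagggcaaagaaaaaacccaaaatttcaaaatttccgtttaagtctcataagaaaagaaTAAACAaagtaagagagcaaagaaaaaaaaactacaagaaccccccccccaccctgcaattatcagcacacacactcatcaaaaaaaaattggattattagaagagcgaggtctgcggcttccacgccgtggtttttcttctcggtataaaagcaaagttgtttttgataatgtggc
Foxp3, downstream start, chrX:7580233-7580482: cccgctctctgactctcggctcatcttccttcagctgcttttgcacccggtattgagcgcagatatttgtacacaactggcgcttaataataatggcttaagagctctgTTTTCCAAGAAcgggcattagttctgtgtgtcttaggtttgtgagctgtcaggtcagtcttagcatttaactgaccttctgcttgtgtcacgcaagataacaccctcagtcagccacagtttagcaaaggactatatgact
Ctla4, chr1:60908775-60909024: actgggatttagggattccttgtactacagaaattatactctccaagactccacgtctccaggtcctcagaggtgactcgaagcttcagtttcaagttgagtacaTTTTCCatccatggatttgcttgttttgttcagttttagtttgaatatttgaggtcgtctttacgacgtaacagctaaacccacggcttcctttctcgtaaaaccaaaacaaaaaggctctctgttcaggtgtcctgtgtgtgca
The upstream Foxp3 window held the forkhead core TAAACA 177 bases before the start. In the downstream Foxp3 window a STAT-type sequence, TTCNNNGAA, began 139 bases before the start and overlapped an NFAT-type sequence, GGAAAA on the minus strand, at 141 bases. Ctla4 carried the same NFAT-type letters, also on the minus strand, 145 bases before its start.

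In all, 9 motifs were searched on both strands, and a match is a description of the letters, not a binding site. Of 32851 mouse promoter windows of the same length, 12% held TAAACA, 7.02% held TTCNNNGAA and 20.4% held GGAAAA, against 1, 1 and 2 of the 7 member windows. An NF-kB type motif, GGG and CC with any 5 bases between them, was in 45.8% of all windows and in the Il2ra, Capg and Nrp1 windows. No member window held the longer forkhead motif TGTTTAC, which contains the reverse complement of TAAACA and was in 3.17% of all windows. Member windows also lacked the RUNX-type TGTGGT (14% of all windows) and the AP-1 type TGANTCA (6.75%). The same held for the CRE-type TGACGTCA (1.55%) and the ETS-type CCGGAAG (6.91%). The Gpr83 window held none of the 9 motifs.

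Levels below are log2 of the deposited array intensity with 16 added, on 1 of 2 scales. Comparisons of genotypes within a tissue use values quantile normalised over that tissue's 8 arrays, called the tissue scale. Comparisons between tissues use values normalised over all 32 arrays, called the all-array scale. A fold on either scale understates the change of a dim gene, because 16 is added first. Each gene is read from its brightest probe set over the 32 arrays, and levels of different genes are not compared, since probe sets bind with different strength. By mean level over the 32 arrays, Foxp3 lay at percentile 53.5 of all probe sets, Gpr83 at 54.0, Ikzf4 at 57.9 and Il2ra at 58.0. Ctla4 lay at 68.4, Ikzf2 at 89.5, Capg at 92.9 and Nrp1 at 93.8. Calls are limma tests with a Benjamini-Hochberg adjusted p below 0.05 over all 27022 probe sets kept by a filter on mean level. Each of the 8 genes passed that filter with its brightest probe set in all 4 tissues.

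Arrays differed in brightness by a factor of 2.58 between the dimmest and the brightest before normalisation. Arrays of 1 tissue correlated at 0.939 to 0.985 on the log2 scale, also before normalisation. Tissue labels fitted their marker genes: thymocyte precursor genes summed to an intensity of 16182 to 17900 in the thymus arrays and to at most 4777 elsewhere, and erythroid genes to 7997 or more in spleen and to at most 349 elsewhere. The mesenteric arrays of transgenic mice 1 and 3 and wild type mouse 2 carried exocrine pancreas transcripts, which summed to between 240 and 97596 over all 8. The peripheral arrays of wild type mice 1 and 3 and transgenic mouse 1 carried skeletal muscle transcripts, with sums from 360 to 13842. The ratio of 3′ to 5′ signal of beta-actin, a sign of RNA quality, was 2.83 to 3.58 in the spleens of transgenic and wild type mice 1 and 2 and 1.65 to 1.85 in those of mice 3 and 4. In mesenteric node it was 3.10 for transgenic mouse 1 and 1.59 to 1.75 for the other mice. Tnfsf8, which encodes CD30 ligand, has 1 probe set, and it did not separate the genotypes: transgenic minus wild type was 0.0099 ± 0.088 (SE) in peripheral node, -0.060 ± 0.13 in mesenteric node, 0.067 ± 0.10 in spleen and -0.10 ± 0.21 in thymus on the log2 scale. Whether that probe set lies within the transcript of the transgene is not given in the sources used here, so these values do not check the genotype labels.

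In wild type mice the 8 genes had different orders over the tissues. Foxp3, Ctla4, Gpr83 and Ikzf4 were highest in lymph nodes, Il2ra and Ikzf2 were highest in thymus, and Capg was lowest in thymus. Tested within mice on the all-array scale, 27 of 48 gene and tissue-pair combinations passed limma's adjusted threshold. By pair, with the share of all probe sets called, these were 7 of 8 genes for spleen minus peripheral node (28.8%), 3 for spleen minus mesenteric node (23%), 6 for thymus minus peripheral node (57.6%), 7 for thymus minus mesenteric node (50.4%) and 4 for thymus minus spleen (48.2%). Between the 2 kinds of lymph node none of the 8 was called (0.773%), with 2 at an unadjusted limma p below 0.05. The share of all probe sets at that unadjusted level was not computed for this pair. Members were read from their brightest probe sets while these shares cover every kept probe set, so the 2 are not alike. With 8 genes, the counts for spleen minus mesenteric node, thymus minus peripheral node and thymus minus spleen lie near the share. They are read as no result about the members.

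**Figure D1:**
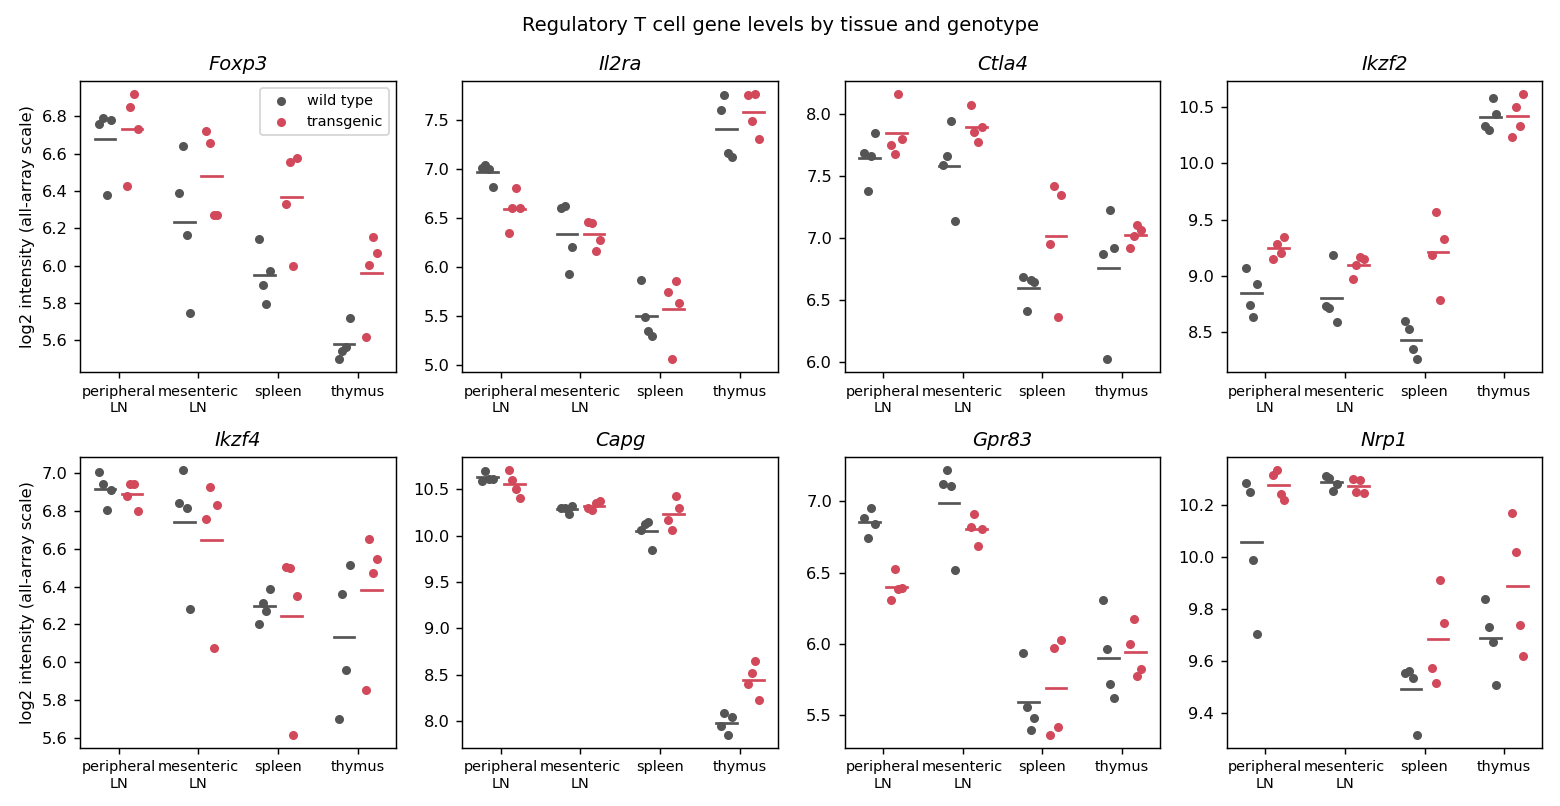
Level of each regulatory T cell gene in every array, as log2 intensity on the all-array scale (vertical axis), by tissue (horizontal axis) and genotype. Points are mice and bars are means of 4 mice. Vertical axes differ between genes. Capg is lowest and Ikzf2 highest in thymus in both genotypes.

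Foxp3, the factor that defines the lineage, stood at 6.68 ± 0.20 (SD, n = 4 for each value here) in wild type peripheral node, 6.23 ± 0.38 in mesenteric node, 5.95 ± 0.15 in spleen and 5.58 ± 0.094 in thymus. Peripheral node exceeded spleen by 0.73 ± 0.12 (SE, limma adjusted p = 0.0090), and thymus lay below spleen (-0.37 ± 0.11, limma adjusted p = 0.038). Neighbours on either side of mesenteric node could not be separated: mesenteric minus peripheral was -0.44 ± 0.20 (limma adjusted p = 0.344) and spleen minus mesenteric was -0.28 ± 0.18 (limma adjusted p = 0.295). In transgenic mice the order of the means was the same, at 6.73 ± 0.22, 6.48 ± 0.24, 6.37 ± 0.27 and 5.96 ± 0.24.

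Il2ra, the alpha chain that gives the interleukin 2 receptor its high affinity, was lowest in wild type spleen, at 5.50 ± 0.25, and stood at 6.34 ± 0.33 in mesenteric node, 6.96 ± 0.10 in peripheral node and 7.41 ± 0.31 in thymus. Thymus exceeded spleen by 1.91 ± 0.21 (SE, limma adjusted p = 0.0013), the widest gap of this gene. Thymus and peripheral node, next to each other in the order, differed by 0.45 ± 0.17 (limma adjusted p = 0.067). A second Il2ra probe set, correlated with the first at 0.71 over 32 arrays, gave a spleen minus peripheral difference of -0.13 (limma adjusted p = 0.553) where the first gave -1.46, so the low spleen level rests on 1 of the 2. Whole thymus also holds the early thymocytes that use this gene.

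Ctla4, which takes the ligands of CD28 away from other T cells, was higher in the lymph nodes, at 7.64 ± 0.19 and 7.58 ± 0.33, than in wild type spleen (6.60 ± 0.13) and thymus (6.76 ± 0.51). All 4 contrasts between a node and a non-node tissue passed, with limma adjusted p from 0.0024 to 0.034, and thymus minus spleen did not (0.16 ± 0.22, limma adjusted p = 0.576). Gpr83, a neuropeptide receptor found on regulatory T cells, had the same arrangement: 6.86 ± 0.086 and 6.99 ± 0.32 in peripheral and mesenteric node, 5.59 ± 0.24 in spleen and 5.90 ± 0.31 in thymus.

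Ikzf2 and Ikzf4 encode Helios and Eos, Ikaros family factors that work with Foxp3. Ikzf2 was 10.41 ± 0.13 in wild type thymus, above peripheral node (8.85 ± 0.19), mesenteric node (8.81 ± 0.26) and spleen (8.44 ± 0.16). The thymus differences were 1.56 ± 0.10, 1.60 ± 0.11 and 1.97 ± 0.092 (SE), each called and each positive in 4 of 4 mice. Ikzf4 went the other way in part: 6.92 ± 0.083 in peripheral node, 6.74 ± 0.32 in mesenteric node, 6.30 ± 0.077 in spleen and 6.13 ± 0.37 in thymus, with spleen and thymus called below peripheral node (limma adjusted p = 0.014 and 0.0070).

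Capg, an actin filament capping protein abundant in macrophages, was 7.99 ± 0.10 in wild type thymus and 10.62 ± 0.046 in peripheral node, 10.28 ± 0.037 in mesenteric node and 10.04 ± 0.14 in spleen. Thymus minus these was -2.64, -2.30 and -2.06 on the log2 scale, and each difference was called. Nrp1, a coreceptor for semaphorins and VEGF, was 10.29 ± 0.026 in mesenteric node, 10.06 ± 0.27 in peripheral node, 9.69 ± 0.14 in thymus and 9.49 ± 0.12 in spleen. Genes of macrophages and dendritic cells moved with the thymus difference in Capg: 12 such genes summed to 6245 to 7618 in wild type thymus and to 22068 to 32402 in the other 3 wild type tissues. Their part in the Capg values was not tested.

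The main comparison set transgenic against wild type within each tissue. No regulatory T cell gene was called in any of the 4 tissues. In peripheral node 10 of all probe sets were called (0.037%, 0.0333% higher), in mesenteric node 0%, in spleen 3 (0.0111%) and in thymus 1 (0.0037%), and a share of 0 of 8 is close to these. At an unadjusted limma p below 0.05 the counts were 3 of 8 genes in peripheral node (8.36% of all probe sets), 0 in mesenteric node (4.71%), 2 in spleen (8.56%) and 2 in thymus (7.26%). Differences were positive for 7 of 8 genes in spleen, with a median of 0.19, and for 8 of 8 in thymus, with a median of 0.22. In both nodes 4 of 8 were positive, with medians of 0.015 and 0.018. Medians over all probe sets tested lay between -0.0097 and 0.0077. A shared positive sign in thymus was not particular to the members. Genes of macrophages and dendritic cells were positive there for 10 of 10, with a median of 0.20, and B cell genes for 6 of 6, with a median of 0.70. General T cell genes were positive for 1 of 15 and thymocyte precursor genes for 3 of 8.

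**Figure D2:**
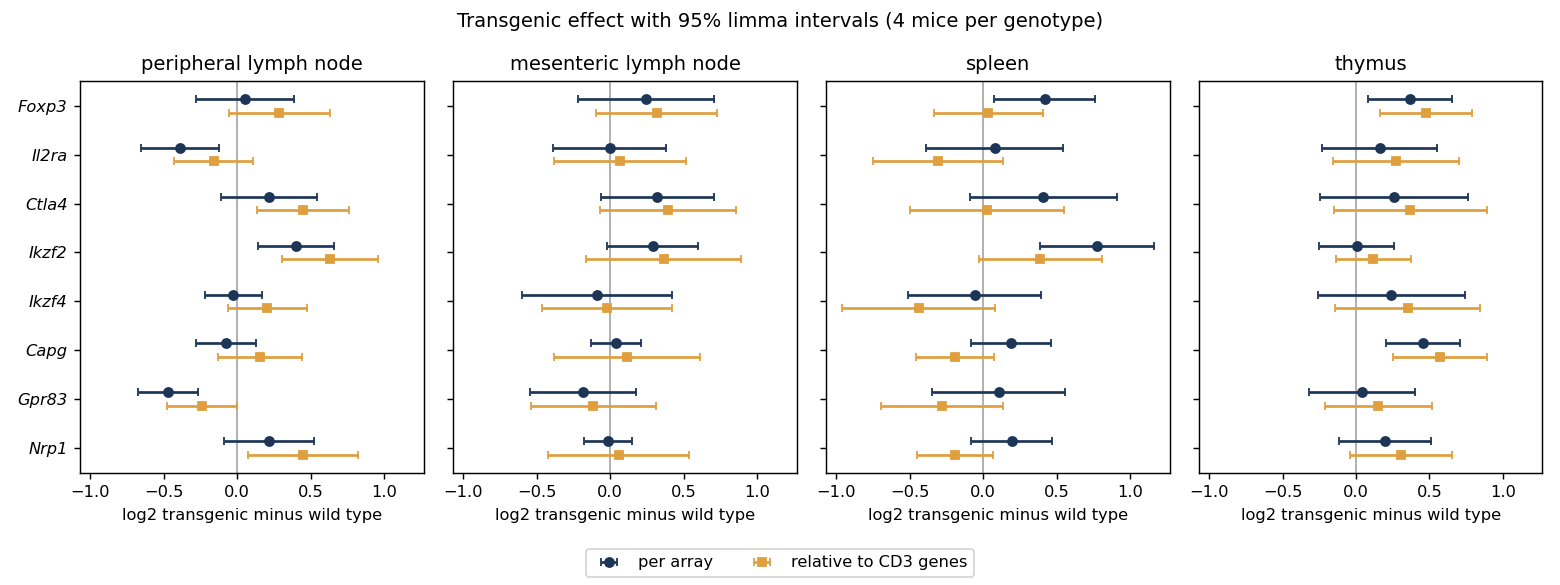
Difference between transgenic and wild type mice for each regulatory T cell gene (vertical axis) in each tissue, in log2 units (horizontal axis). Dark circles are differences per array and light squares are differences after the mean of 4 CD3 genes was subtracted from each array, with 95% limma intervals from 4 mice per genotype. Ikzf2 in spleen is at 0.77 per array and at 0.39 relative to CD3 genes.

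Ikzf2 in spleen had the largest difference of the 32. Its tissue-scale values were 9.25, 9.63, 8.85 and 9.39 in transgenic mice 1 to 4 and 8.66, 8.59, 8.42 and 8.34 in wild type mice 1 to 4. All 4 transgenic spleens lay above all 4 wild type spleens, and transgenic mouse 3 was the lowest of its group. The difference was 0.77 ± 0.17 (SE, 95% interval 0.39 to 1.16), or 1.71-fold, with an adjusted p of 0.483 by limma. Over the alternative analyses it ran from 0.57 to 0.92 with adjusted p between 0.0041 and 0.936, and it was called in 1 of them, a single fit over all 32 arrays. The second Ikzf2 probe set read 8.69, 9.15, 7.62 and 8.36 in transgenic spleens and 8.24, 7.90, 7.52 and 7.65 in wild type spleens. There the groups overlapped, through transgenic mouse 3. Of all probe sets, 4.88% had groups that did not overlap in spleen, 2.8% with the transgenic group higher and 2.08% with it lower, and Ikzf2 was the 1 member of 8.

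Foxp3 in the same spleens read 6.46, 6.68, 6.12 and 6.70 in transgenic mice and 6.26, 6.01, 5.91 and 6.09 in wild type mice. Of the transgenic values, 3 lay above every wild type value and that of mouse 3 did not. The difference was 0.42 ± 0.15 (SE, 95% interval 0.072 to 0.77), or 1.34-fold, with an adjusted p of 0.563 by limma. Ctla4 read 7.06, 7.52, 6.48 and 7.45 against 6.80, 6.54, 6.78 and 6.76, a difference of 0.41 ± 0.22 (limma adjusted p = 0.644). Transgenic mouse 3 was again the lowest, here below all 8 arrays.

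The other spleen differences were small beside their errors: Il2ra 0.078 ± 0.21, Capg 0.19 ± 0.12, Gpr83 0.11 ± 0.20 and Nrp1 0.19 ± 0.12 (SE). Ikzf4 read 6.63, 6.62, 5.73 and 6.48 against 6.33, 6.44, 6.40 and 6.51, a difference of -0.056 ± 0.20, and its sign turned to 0.16 without transgenic mouse 3. A second Ikzf4 probe set was too dim for the filter in spleen and was therefore not tested there; it is given because its values stood out when seen. It read 5.97, 5.89, 5.51 and 5.92 in transgenic spleens and 4.96, 4.00, 4.00 and 4.00 in wild type spleens, where 4.00 is the floor set by a deposited intensity at or below 0. Its 3 wild type values at the floor have no order and allow no fold.

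T cell genes as a whole moved with these values in spleen. Of 15 general T cell genes measured, 14 were positive with a median of 0.29, 8 had an unadjusted limma p below 0.05, all higher (4.22% of all probe sets), and none was called. Their summed intensity was 9153 to 11013 in transgenic spleens and 7798 to 8490 in wild type spleens. The mean log2 value of Cd3d, Cd3e, Cd3g and Cd247, the CD3 chains of the T cell receptor, was 0.38 higher in transgenic spleens. Of the coreceptor genes, Cd4 differed by 0.71 ± 0.22 (SE, limma adjusted p = 0.540) and Cd8a by -0.059 ± 0.17. In the same spleens erythroid genes summed to 7997 to 13934 against 13438 to 23169. Regulatory T cell genes themselves summed to 2895 to 3240 against 2178 to 2577. That sum is of linear intensities, so the bright Capg, Nrp1 and Ikzf2 make up most of it and Foxp3 little. No share of all probe sets was computed for such a sum.

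Set against the CD3 chains of the same array, the spleen difference of Foxp3 was 0.035 ± 0.16 (SE, 95% interval -0.34 to 0.41) and that of Ctla4 was 0.027 ± 0.23 (95% interval -0.50 to 0.55). Ikzf2 kept 0.39 ± 0.18 (95% interval -0.025 to 0.81, limma adjusted p = 0.117). Il2ra and Ikzf4 went to -0.31 ± 0.20 and -0.44 ± 0.23. In spleen 3 of the 8 genes were positive on this scale, with a median of -0.19, where the median of all probe sets was -0.38. Over the 4 tissues 0 of 32 gene and tissue combinations were called relative to CD3. At an unadjusted limma p below 0.05 there were 6 of 32, beside 22.1% of all probe sets in peripheral node, 1.93% in mesenteric node, 48.8% in spleen and 10.9% in thymus, so this count is read as no result about the members. Of all probe sets, 0.303% were called on this scale in peripheral node, 0% in mesenteric node, 0.0148% in spleen and 0.0111% in thymus.

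Within the sets of spleen arrays that differ in beta-actin ratio, Ikzf2 differed by 0.82 ± 0.16 in mice 1 and 2 and by 0.74 ± 0.22 (SE) in mice 3 and 4. Foxp3 differed by 0.44 and 0.39 in the same sets. Relative to CD3 genes Ikzf2 gave 0.58 and 0.21 and Foxp3 gave 0.21 and -0.14, so that the Foxp3 value changed sign in mice 3 and 4. These sets were chosen after the data were seen.

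In thymus the largest difference was that of Capg. It read 8.60, 8.18, 8.36 and 8.47 in transgenic thymi and 7.82, 8.003, 7.91 and 8.04 in wild type thymi. The 2 groups did not overlap, which held for 4.61% of all probe sets in thymus (2.54% higher and 2.07% lower in transgenic) and for 1 of the 8 genes. The difference was 0.46 ± 0.11 (SE, 95% interval 0.21 to 0.71), or 1.37-fold, with an adjusted p of 0.541 by limma. A second Capg probe set, correlated with the first at 0.99 over 32 arrays, gave 0.53 ± 0.16 (limma adjusted p = 0.635), again without overlap. Over the alternatives the adjusted p of the first ran from 0.019 to 1.000, and it was called in the single fit over 32 arrays only. Genes of macrophages and dendritic cells, in which Capg is abundant, had a median of 0.20 in thymus, and their sums were 6756 to 8734 against 6245 to 7618. B cell genes had a median of 0.70 there, with sums of 913 to 1777 against 674 to 814. The part of either in the Capg difference was not tested. The beta-actin ratio of the thymus arrays was 2.25 and 2.23 in transgenic mice 1 and 2, 1.78 and 1.68 in wild type mice 1 and 2, and 1.34 to 1.43 in mice 3 and 4 of both genotypes. Capg differed by 0.49 in mice 1 and 2 alone and by 0.43 in mice 3 and 4 alone. Those sets were chosen after the data were seen, and the part of RNA quality in the Capg difference was not tested.

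Foxp3 in thymus read 6.17, 6.09, 5.65 and 6.02 in transgenic and 5.60, 5.75, 5.54 and 5.58 in wild type mice. Of the transgenic thymi, 3 lay above all wild type thymi, and that of mouse 3 lay among them. The difference was 0.37 ± 0.13 (SE, 95% interval 0.080 to 0.65), or 1.29-fold, with an adjusted p of 0.653 by limma. Relative to CD3 genes, whose mean was 0.11 lower in transgenic thymi, it was 0.48 ± 0.14 (limma adjusted p = 0.396), and the groups then did not overlap. The share of all probe sets without overlap on that scale was not computed. At an unadjusted limma p below 0.05 on it, 9.97% of all probe sets were higher and 0.903% lower. In mice 1 and 2 alone, where the beta-actin ratio was higher in the transgenic thymi, Foxp3 differed by 0.46, and in mice 3 and 4 alone by 0.27. The part of RNA quality in the Foxp3 difference was not tested. The CD3 scale moves every probe set of a tissue by the same amount, down in spleen and up in thymus. These shifts are therefore not particular to Foxp3. The median of all probe sets on that scale was 0.11 in thymus.

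Ikzf2 was level in thymus: 10.27, 10.55, 10.17 and 10.43 in transgenic and 10.51, 10.37, 10.27 and 10.24 in wild type mice. Its difference was 0.0049 ± 0.11 (SE, 95% interval -0.25 to 0.26). The remaining thymus differences were Il2ra 0.16 ± 0.17, Ctla4 0.26 ± 0.22, Ikzf4 0.24 ± 0.22, Gpr83 0.040 ± 0.16 and Nrp1 0.20 ± 0.14. Of the 4 Nrp1 probe sets, 3 were positive in thymus and the dimmest, which correlated with the brightest at -0.26 over 32 arrays, gave -0.21 ± 0.11. Wild type mouse 4 was the low array for Ctla4, at 6.04 where the other 3 wild type thymi had 6.86 to 7.20.

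Peripheral node held the only genes whose brightest probe set had the transgenic group below the wild type group, Gpr83 and Il2ra. Gpr83 read 6.35, 6.58, 6.43 and 6.44 in transgenic and 6.95, 6.81, 7.02 and 6.91 in wild type nodes. No transgenic node reached the lowest wild type node. The difference was -0.47 ± 0.089 (SE), a fold of 0.721, with an adjusted p of 0.186 by limma, the smallest adjusted p of the 8 genes in any tissue. Without the 3 arrays with muscle transcripts it was -0.37 ± 0.12. In mesenteric node Gpr83 overlapped, at 6.52, 6.63, 6.65 and 6.74 against 6.94, 6.35, 6.95 and 7.05. A second Gpr83 probe set was below the filter in every tissue and correlated with the first at only 0.079, so Gpr83 rests on 1 probe set. In mesenteric node the transgenic values of this second probe set lay below the wild type values, with means of 4.36 and 5.48. There 2 of its 4 transgenic values were at the floor, and it was not tested.

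Il2ra in peripheral node read 6.39, 6.66, 6.87 and 6.65 in transgenic and 7.08, 7.11, 7.07 and 6.87 in wild type mice. The highest transgenic and the lowest wild type value both round to 6.87, so the groups only just failed to overlap. The difference was -0.39 ± 0.12 (SE, limma adjusted p = 0.419), and the second Il2ra probe set gave -0.016 ± 0.11. Groups without overlap made up 5.35% of all probe sets in this tissue, 2.43% with the transgenic group higher and 2.92% with it lower, against 1 and 2 of the 8 genes.

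The 1 higher was Ikzf2, at 9.29, 9.43, 9.35 and 9.49 in transgenic and 9.22, 8.89, 8.78 and 9.07 in wild type peripheral nodes. Its difference was 0.40 ± 0.11 (SE), or 1.32-fold, with an adjusted p of 0.386 by limma. Foxp3 was level, at 6.47, 6.92, 6.99 and 6.79 against 6.82, 6.85, 6.42 and 6.84, a difference of 0.056 ± 0.15. Ctla4 differed by 0.22 ± 0.14 and Nrp1 by 0.22 ± 0.13, and Ikzf4 and Capg by less than their errors.

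CD3 genes moved with the peripheral node values in the other direction from spleen. Their mean was 0.23 lower in transgenic nodes, 14 of 15 general T cell genes were negative with 5 at an unadjusted limma p below 0.05 (4.15% of all probe sets lower), and T cell genes summed to 20295 to 23507 against 24478 to 25383. Cd4 lay the other way from the CD3 mean, at 0.23 ± 0.24 (SE). Relative to CD3, Gpr83 was at -0.24 ± 0.11 (limma adjusted p = 0.226) and Il2ra at -0.16 ± 0.12, while Ikzf2 was at 0.63 ± 0.15 (limma adjusted p = 0.108), Ctla4 at 0.45 ± 0.14 (limma adjusted p = 0.163) and Nrp1 at 0.45 ± 0.17. The median of the 8 was 0.25 on this scale beside 0.22 for all probe sets.

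In mesenteric node no member reached an unadjusted limma p below 0.05, and in none of the 8 genes did the groups lie apart, beside 3.94% of all probe sets (2.71% higher and 1.23% lower in transgenic). Ikzf2 differed by 0.29 ± 0.14, Ctla4 by 0.32 ± 0.17 and Foxp3 by 0.24 ± 0.20 (SE), all with adjusted p of 0.972 by limma. The other members differed by -0.19 ± 0.16 (Gpr83), 0.041 ± 0.074 (Capg), -0.092 ± 0.22 (Ikzf4), -0.014 ± 0.072 (Nrp1) and -0.0043 ± 0.17 (Il2ra). Foxp3 read 6.10, 6.10, 6.55 and 6.48 in transgenic and 5.99, 5.58, 6.22 and 6.47 in wild type mice. Arrays of mice 1 and 2 were the lower ones in both genotypes. The lowest, wild type mouse 2, is 1 of the 3 arrays with pancreas transcripts. Without those 3 arrays the difference of Foxp3 was 0.069 ± 0.19, that of Ctla4 0.15 ± 0.14 and that of Ikzf2 0.25 ± 0.17.

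Whether the transgenic effect differed between tissues was tested on the difference between tissues within each mouse. Of 48 combinations, 0 were called and 8 had an unadjusted limma p below 0.05. Of all probe sets, 0.00684% were called for thymus minus spleen and 0% for each of the other 5 pairs. The share of all probe sets at that unadjusted level was not computed here, so the 8 are read as no result about the members. The smallest p was that of Ikzf2 for thymus minus spleen, where the effect was 0.77 ± 0.13 smaller in thymus (difference -0.77, 95% interval -1.07 to -0.47, limma adjusted p = 0.478). Capg had effects 0.53 ± 0.14 larger in thymus than in peripheral node (limma adjusted p = 0.381). Gpr83 had effects 0.58 ± 0.21 larger in spleen and 0.51 ± 0.17 larger in thymus than in peripheral node (limma adjusted p = 0.611 and 0.419).

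Members also varied between mice of 1 genotype, and part of that variation was shared. After the mean of each tissue was taken off, Foxp3 correlated over the 32 arrays with Ctla4 (Pearson r = 0.63), Ikzf4 (0.57) and Ikzf2 (0.55), and Ctla4 with Ikzf2 (0.67). After the mean of each tissue and genotype was taken off as well, these were 0.49, 0.68, 0.40 and 0.61. On that scale Il2ra correlated at -0.52 with Ikzf2 and -0.41 with Ctla4, but at 0.15 with Foxp3 and -0.13 with Ikzf4. Nrp1 correlated at 0.47 with Il2ra and at 0.39 with Capg. The 32 arrays are 8 mice in 4 tissues and share RNA preparation and array brightness within a mouse and tissue, so these values are descriptions and no p is given.

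**Figure D3:**
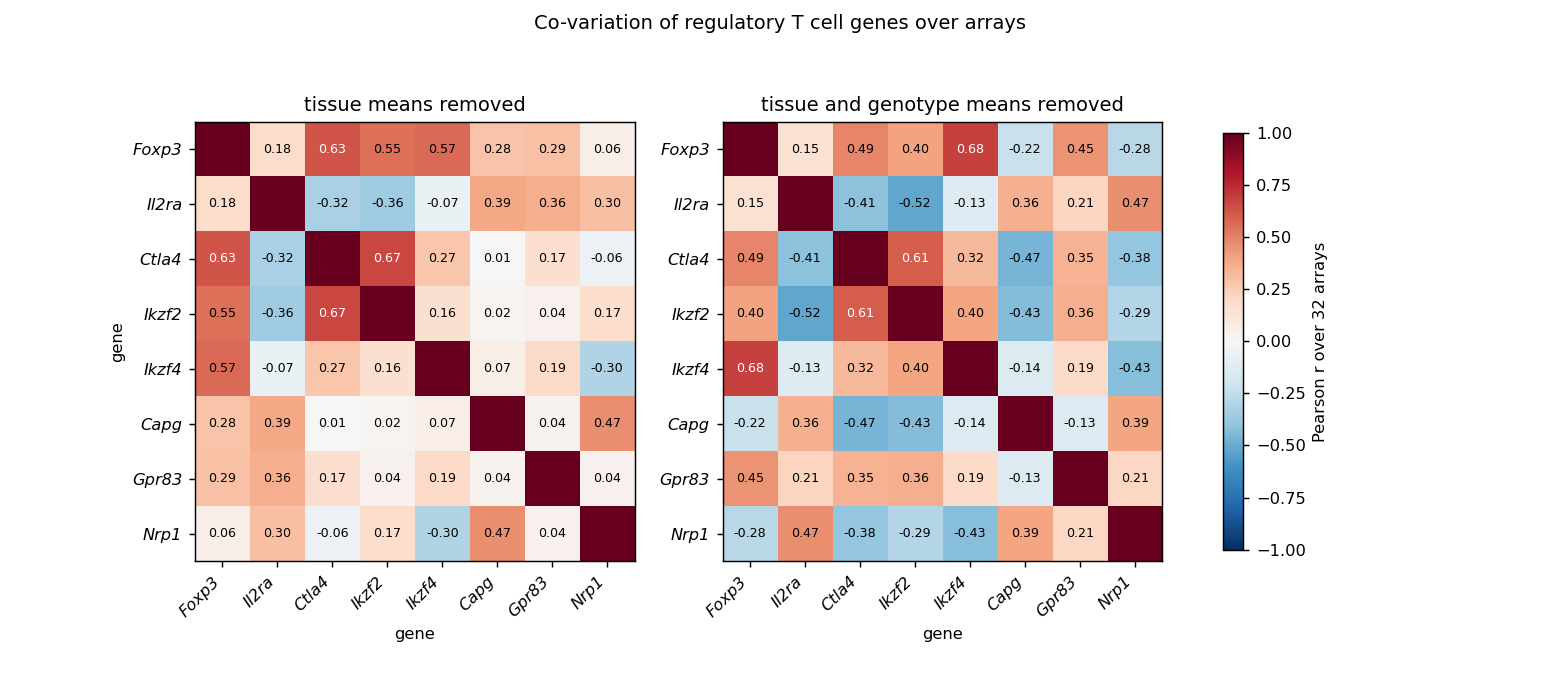
Pearson correlation between regulatory T cell genes over 32 arrays, on the all-array scale, after the mean of each tissue was removed (left) and after the mean of each tissue and genotype was removed (right). Both axes list the 8 genes, and colour gives r from -1 to 1. Foxp3, Ctla4 and Ikzf2 correlate with each other on both sides, and Il2ra correlates negatively with Ctla4 and Ikzf2.

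Correlations within a single tissue were computed for spleen only. Transgenic mouse 3 had the lowest Foxp3, Ctla4, Ikzf2 and Ikzf4 of the 4 transgenic spleens and the highest Capg (10.48 where the others had 10.12 to 10.36) and Nrp1 (9.97 where the others had 9.58 to 9.81). Within genotype, Foxp3 correlated over the 8 spleen arrays with Ctla4 at 0.89 and Ikzf2 at 0.86, and Capg with Nrp1 at 0.96, while Foxp3 and Capg were at -0.56. Without transgenic mouse 3, over 7 arrays, these were 0.64, 0.61, 0.96 and -0.18, so the pairing of Capg with Nrp1 did not come from that mouse and part of the others did.

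The 5 genes outside the members with the highest correlation to Foxp3, after tissue means were removed, were Qars (0.70), LOC664787 (0.70), Tbck (0.69), Srp9 (0.68) and Atp8b2 (0.68). They were the top of 12975 candidates, whose median correlation was 0.051 and whose 99th percentile was 0.54. Ctla4, at 0.63, was the member nearest to them. None of the 5 was called between genotypes in any tissue by limma. Qars encodes an aminoacyl-tRNA synthetase and Srp9 a part of the signal recognition particle, and neither is on the lists of regulatory T cell genes used here.

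A wider list of regulatory T cell signature genes was described next. It named 28 genes, of which 26 had probe sets and 22 passed the filter in spleen and 23 in each other tissue. None was called in any tissue. At an unadjusted limma p below 0.05, 13 were higher in transgenic spleen (4.22% of all probe sets), 9 in thymus (3.97%), 5 in peripheral node (4.21%) and 3 in mesenteric node (3.22%), and none was lower in any tissue. In spleen 20 of 22 were positive with a median of 0.44, and 10 had groups that did not overlap, all higher in transgenic, beside 2.8% of all probe sets. The list was drawn up with earlier results of these data known, so its direction is no independent evidence.

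**Figure D4:**
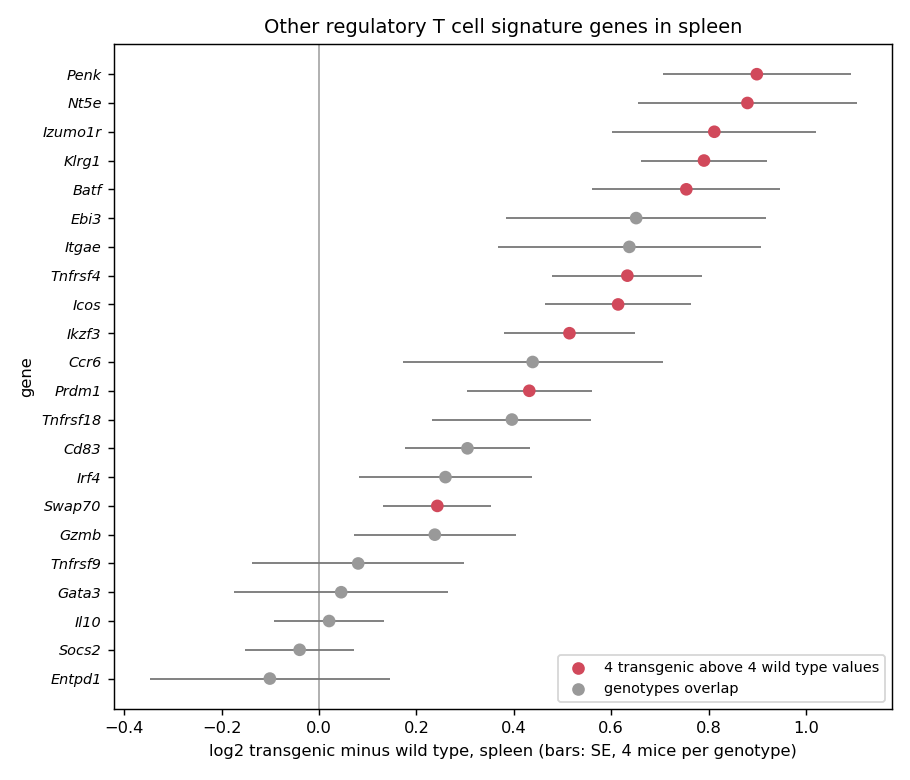
Difference between transgenic and wild type spleens in log2 units (horizontal axis) for the 22 other regulatory T cell signature genes that passed the filter (vertical axis), with bars for the standard error from 4 mice per genotype. Red points mark the 10 genes whose 4 transgenic values lie above all 4 wild type values. Penk, Nt5e and Izumo1r lie farthest to the right, at 0.90, 0.88 and 0.81.

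Klrg1, a receptor of highly differentiated T cells that marks a subset of regulatory T cells, differed by 0.79 ± 0.13 in spleen (SE, limma adjusted p = 0.321). It also differed by 0.89 ± 0.15 in mesenteric node, 0.78 ± 0.23 in thymus and 0.46 ± 0.11 in peripheral node, with groups apart in all 4 tissues. Penk, which encodes the enkephalin precursor, differed by 0.90 ± 0.19 in spleen, 0.91 ± 0.17 in thymus and 0.61 ± 0.17 in mesenteric node. In peripheral node Penk differed by 0.23 ± 0.20 and the groups overlapped. Icos is a costimulatory receptor also used by follicular helper T cells. It differed by 0.61 ± 0.15 in spleen, 0.30 ± 0.10 in mesenteric node, 0.25 ± 0.13 in thymus and -0.086 ± 0.084 in peripheral node. Relative to CD3 genes the spleen median of the list was 0.051, with 13 positive and 9 negative, beside -0.38 for all probe sets.

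Pathway genes around each member were counted in the same way, and none was called in any tissue. Among 19 inducers and partners of Foxp3 no gene had an unadjusted limma p below 0.05 in either node or in spleen. In thymus 1 was lower at that level (3.29% of all probe sets). Of 11 genes of interleukin 2 signalling, 10 passed the filter in spleen and in thymus. In spleen 2 of the 10 had an unadjusted limma p below 0.05, both higher (4.22% of all probe sets). Among them was Socs1, an inhibitor of cytokine signalling, at 0.60 ± 0.16 (SE, limma adjusted p = 0.528). In thymus Socs1 lay the other way, at -0.40 ± 0.16, and Il2rb, the beta chain of the interleukin 2 receptor, was at 0.91 ± 0.35. Medians of this list were 0.044 in spleen, 0.078 in thymus, -0.044 in peripheral node and -0.15 in mesenteric node, where 10 of the 11 were negative.

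For Ctla4, 10 genes of the CD28 and PD-1 axis were taken. Of them 3 had an unadjusted limma p below 0.05 in spleen, all higher (4.22% of all probe sets). Pdcd1, which encodes the inhibitory receptor PD-1, differed by 1.19 ± 0.19 (SE, limma adjusted p = 0.321), Icos by 0.61 ± 0.15 and Cd28 by 0.30 ± 0.11. Relative to CD3 genes Pdcd1 was at 0.81 and Cd28 at -0.087. Ikzf3, which encodes Aiolos, was the Ikaros family gene outside the members with the smallest p in spleen, at 0.51 ± 0.13 (limma adjusted p = 0.528). None of 10 neuropilin partners and ligands had an unadjusted limma p below 0.05 in any tissue. Of 15 genes that activate or transmit TGF-beta, 13 to 15 passed the filter, and none reached that level in spleen or peripheral node. At that level 2 were lower in mesenteric node (1.5% of all probe sets). In thymus 2 were higher (3.97%) and 1 lower (3.29%).

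Follicular helper T cells share Ctla4 and Icos with regulatory T cells, and their genes moved with the spleen values. Of 14 such genes, 12 passed the filter in spleen and 6 had an unadjusted limma p below 0.05, all higher (4.22% of all probe sets), with a median of 0.57. Tox, a transcription factor of that programme, differed by 1.11 ± 0.18 (SE, limma adjusted p = 0.321), beside Pdcd1 and Icos given above. The list summed to 7557 to 8721 in transgenic spleens and 6100 to 7124 in wild type spleens, and no defining gene was at 0. Its part in the Ikzf2 and Ctla4 differences of spleen was not tested.

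Markers of other cells that use member genes were described in the same way. Endothelial genes, 10 in all, were negative for 9 of 10 in spleen, with a median of -0.25 and none at an unadjusted limma p below 0.05 in any tissue. Macrophage and dendritic cell genes had a median of -0.11 in spleen. Plasmacytoid dendritic cell genes had a median of 0.12 there, with 6 of 7 positive, 1 (Pacsin1) at an unadjusted limma p below 0.05 and 2 with the transgenic group wholly higher, beside 2.8% of all probe sets. In spleen, sums overlapped between genotypes for each of these lists. Thymocyte precursor genes, which in thymus mark cells that also use Il2ra, had a median of -0.013 there over 8 genes. In peripheral node the median was -0.13 over the 5 that passed the filter. Rag1, Rag2 and Ptcra were not among those 5, so the 2 medians cover different genes.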

How the data were processed

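Total RNA of whole tissue was hybridised to 1 biotin-labelled Affymetrix array per tissue and mouse, per the labels. The deposited values are array intensity on a linear scale, 14.9% to 18.4% of them below 0 on each array. How the authors summarised probes into these intensities is not given in the sources used here, and no brightness scaling had made the arrays equal. Intensities below 0 were set to 0, 16 was added and log2 taken. Values were then quantile normalised over the 8 arrays of a tissue, or over all 32 for contrasts between tissues. Only probe sets whose mean exceeded the 40th percentile were tested with limma 3.58.1 in R 4.3.3, with Benjamini-Hochberg adjustment over all of them, after the procedure was tested on simulated data. Tissues were paired by mouse where they were compared, since 1 number is 1 animal within a genotype, and no block joined the genotypes. CD3-relative values subtract the mean of Cd3d, Cd3e, Cd3g and Cd247 on each array. A ± is a standard error for differences and a standard deviation for levels.

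Members and gene lists were chosen with earlier results of these data known. All members are named in every tissue, and from each other list up to 3 genes with the smallest limma p in a tissue described. Of the signature list, Nt5e and Izumo1r are named in a caption outside that rule, after their values were seen. Gene names came from the array's annotation table, where 34945 probe sets had 1 symbol, 932 several and 9160 none. Alternatives were other probe sets, added constants of 1 and 64, no filter and a 60th percentile filter, other scalings, other reference genes, a mouse number block, 1 fit over 32 arrays, and leaving out each mouse or arrays with pancreas or muscle transcripts.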

Additional observations from a re-analysis of the deposited data

Results flagged for a closer look

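Each group of 4 mice was screened for a value far from the other 3, by the gap to its nearest neighbour as a share of the group's range, against Dixon's 95% critical value. Chance passes it in about 1 of 20 groups. Of 64 groups of a member gene, tissue and genotype, 5 passed, and in all 5 the outlying mouse was the lowest of its group. Foxp3 in wild type peripheral node had mouse 3 at 6.42 where the others had 6.82 to 6.85, a share of 0.922. Gpr83 in wild type mesenteric node had mouse 2 at 6.35 where the others had 6.94 to 7.05, a share of 0.843. Ctla4 in wild type spleen had mouse 2 at 6.54 where the others had 6.76 to 6.80, a share of 0.852. Ikzf4 in transgenic spleen had mouse 3 at 5.73 where the others had 6.48 to 6.63, a share of 0.834. Nrp1 in wild type spleen had mouse 4 at 9.38 where the others had 9.60 to 9.63, a share of 0.880. The mesenteric array of wild type mouse 2 also carried pancreas transcripts and the peripheral array of wild type mouse 3 muscle transcripts. Without the 3 arrays with most of each, the genotype difference was -0.30 ± 0.097 (SE) for Gpr83 in mesenteric node, where all arrays gave -0.19 ± 0.16, and 0.051 ± 0.12 for Foxp3 in peripheral node, where all arrays gave 0.056 ± 0.15.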

How the results depend on the processing

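With 4 mice per group, most member differences were near their errors, and 0 of 8 genes were called between genotypes in each tissue under every alternative run except 1 fit over 32 arrays, which called 1 in spleen (Ikzf2, adjusted p = 0.0041) and 1 in thymus (Capg, adjusted p = 0.019). Relative to CD3 genes an added constant of 64 gave 2 in place of 0, Ikzf2 in peripheral node (adjusted p = 0.048) and Il2ra in spleen (adjusted p = 0.049, lower). Wild type contrasts between tissues gave 24 to 33 calls beside 27, except 17 with values as deposited and 15 with a filter at the 60th percentile, and 22 to 26 without 1 mouse. Without 1 mouse the other counts stayed at 0. Over the 32 arrays Foxp3, Gpr83, Ikzf4 and Il2ra lay at percentiles 53.5 to 58.0, below the 60th percentile filter. Under that filter they were not tested in wild type contrasts, and a gene left out cannot be called. Which members it left out within each tissue is not given here, so its counts of 0 between genotypes are partly fixed in advance. No label pairs the genotypes by mouse number. With group means removed, same-numbered mice of both genotypes correlated at -0.02 to 0.33 in peripheral node and -0.44 to 0.27 in mesenteric node. The range was 0.02 to 0.32 in spleen and -0.02 to 0.33 in thymus. Mice of unlike number were not set beside these, so a batch shared by number was not tested. With the mouse number as a replicate block the count was 0 in each tissue and relative to CD3 genes, and with no replicate block it was 31 for wild type contrasts and 0 for differences of the effect. Values as deposited, without normalisation, shifted the median of all probe sets to 0.18 in peripheral node and -0.17 in spleen. The other T cell genes as reference were Zap70, Lat and Cd5, since Lck had no probe set in the table. Analyses of mice 1 and 2 alone and 3 and 4 alone were chosen after seeing the data.

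Of 2899 gene values, 2791 kept direction and side of the threshold, 35 were no longer called, 29 became called and 44 reversed, 2 of them with values at the floor (Ikzf4), and the cause was not tested. An uncalled value whose sign turned by no more than its standard error was counted as kept. Transgenic minus wild type reversed with values as deposited for Ikzf4 (0.19) and Capg (0.074) in peripheral node, Nrp1 in mesenteric node (0.15, and 0.15 with a common median) and Capg (-0.0097) and Nrp1 (-0.013) in spleen. It reversed with the second probe set for Ikzf4 in peripheral node (0.13) and Ikzf2 in thymus (-0.24), and without transgenic replicate 3 for Ikzf4 in spleen (0.16). In mice 1 and 2 alone it reversed for Foxp3 in peripheral node (-0.15) and for Il2ra (-0.29), Ikzf4 (0.25) and Nrp1 (-0.015) in spleen, and in mice 3 and 4 alone for Il2ra in thymus (-0.053). Relative to CD3 genes it reversed for Il2ra in peripheral node (0.22 with the second probe set, 0.056 in mice 3 and 4), for Foxp3 (-0.14) and Ctla4 (-0.33) in spleen in mice 3 and 4, for Ikzf4 in spleen in mice 1 and 2 (0.012) and for Ikzf2 in thymus with the second probe set (-0.13).

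Differences of the effect reversed with values as deposited for Ctla4 mesenteric minus peripheral (-0.068), for Ctla4 (-0.19), Ikzf2 (-0.012) and Capg (-0.084) spleen minus peripheral, for Capg (-0.21) and Nrp1 (-0.16) spleen minus mesenteric and for Foxp3 thymus minus spleen (0.18). With a common median Ikzf2 mesenteric minus peripheral (0.027) and Capg (-0.076) and Nrp1 (-0.029) spleen minus mesenteric reversed. With the second probe set Il2ra reversed for spleen minus peripheral (-0.048) and thymus minus mesenteric (-0.067). Wild type contrasts reversed with values as deposited for Nrp1 mesenteric minus peripheral (-0.065), Foxp3 (0.051), Ikzf2 (0.0073) and Capg (0.15) spleen minus mesenteric, and Ctla4 (-0.084) and Nrp1 (-0.074) thymus minus spleen. With the second probe set Ikzf4 mesenteric minus peripheral (0.15), Ikzf2 spleen minus peripheral (0.11) and Il2ra (0.15) and Ikzf2 (0.23) spleen minus mesenteric reversed. Of the 4 wild type spleen values of that Ikzf4 probe set 3 lie at the floor, so its values involving spleen (1.46 and 0.80) show no direction and are not read as reversals.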
